A study of Homo sapiens with 30 samples.

Results

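The interval that holds LHX3, QSOX2 and CCDC187 lies at chr9:139030001-139215000 (hg19), centromeric of NOTCH1. Its members are the DpnII fragment ends that the 4C-seq tables list between these positions, 551 of the 444515 chromosome 9 ends in any table. The promoter tables list 514 of them, and the S2 and S4 tables list 535 each. The interval was chosen by position, with no measured value in the rule. It begins 228 kb and ends 413 kb from the NOTCH1 promoter viewpoint, 171 to 356 kb from the S2 viewpoint and 309 to 494 kb from the S4 viewpoint. The tables list no end from 139166354 to 139217002, so that all values below come from the 136 kb on the centromeric side of that stretch.

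4C-seq fixes chromatin with formaldehyde, cuts it, ligates the cut ends and reads what was joined to 1 chosen fragment, the viewpoint. More reads at a fragment end mean that more copies of a ligation between that end and the viewpoint were sequenced. CTCF is a DNA-binding protein at which many chromatin loops and domain boundaries are anchored, and a boundary can limit which genes a regulatory element reaches. NOTCH1 encodes a receptor of the Notch pathway, which in blood cells takes part in lineage choice. LHX3 encodes a LIM-homeodomain transcription factor of the developing pituitary and of motor neurons. QSOX2 encodes a quiescin sulfhydryl oxidase, an enzyme that forms disulphide bonds.

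The series holds 30 libraries from K562, an established human chronic myeloid leukaemia line. Each of 3 viewpoints (the NOTCH1 promoter and the CTCF sites S2 and S4) was read in 5 genotypes, with 2 libraries in each of the 15 groups. The genotypes were the S2 mutant, the S4 mutant, the S5 mutant, the S4-S5 mutant, which carries both changes, and unedited wild-type cells (WT). The study asked what loss of CTCF at these sites does to contacts in the NOTCH1 locus. The kind of edit, the number of clones behind a mutant and the position of S5 are not stated in the labels. The labels call the 2 libraries of a condition independent without saying at which step they were separated, so p-values measure the spread between libraries, which may be technical. Mutant cells read from the mutated site itself (the S2 mutant at the S2 viewpoint, the S4 and S4-S5 mutants at the S4 viewpoint) have the change at or near the viewpoint.

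In RefSeq's order of genes on GRCh38.p14, LHX3, QSOX2 and CCDC187 follow each other between TMEM250 and GPSM1. No hg19 annotation was used here, so single bins are given by position and not assigned to a gene. The 250 bases before an annotated start are shown for LHX3 and CCDC187 (RefSeq, GRCh38.p14, minus strand), since a DpnII site is where 4C can cut and join. GATC, the DpnII site, is in capitals where a script found it.
LHX3, chr9:136201675-136201924: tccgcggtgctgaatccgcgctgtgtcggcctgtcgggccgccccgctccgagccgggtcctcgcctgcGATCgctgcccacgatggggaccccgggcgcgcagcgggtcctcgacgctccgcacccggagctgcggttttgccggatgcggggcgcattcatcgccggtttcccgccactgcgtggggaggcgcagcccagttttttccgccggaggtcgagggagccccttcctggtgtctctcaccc
LHX3, chr9:136205129-136205378: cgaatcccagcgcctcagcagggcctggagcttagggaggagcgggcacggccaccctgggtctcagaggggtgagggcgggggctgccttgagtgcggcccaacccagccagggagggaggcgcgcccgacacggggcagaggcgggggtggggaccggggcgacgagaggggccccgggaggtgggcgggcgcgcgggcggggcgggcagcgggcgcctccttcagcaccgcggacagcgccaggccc
CCDC187, chr9:136304095-136304344: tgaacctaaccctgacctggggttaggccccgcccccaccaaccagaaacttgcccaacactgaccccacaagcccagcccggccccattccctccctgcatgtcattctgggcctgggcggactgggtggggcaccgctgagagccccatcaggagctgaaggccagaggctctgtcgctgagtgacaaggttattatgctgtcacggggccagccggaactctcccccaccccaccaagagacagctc
Of these 3 windows only that of LHX3 at 136201675 holds GATC, a motif found in 35.8% of the 35116 RefSeq promoter windows of this length. It reads the same on both strands, and the windows before the other annotated starts of both genes hold none either. These positions are on another build than the read tables and were not joined to them.

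Mutant libraries held 3500663 to 8008761 reads on chromosome 9 and WT libraries 1437870 to 2326487, so every WT library had fewer than every mutant library. Reads within 5 kb of the viewpoint, where undigested and self-ligated fragments collect, were set aside, and the reads left within 500 kb are called near-cis below. The reads set aside were 88.1% to 98.6% of chromosome 9 reads in mutants and 77.3% to 77.8% in WT at the promoter, 61.3% to 76.7% in mutants and 59.8% to 60.3% in WT at S2, and 56.8% to 90.9% in mutants and 31.4% to 32.1% in WT at S4. The S2 mutant at the promoter was left with the fewest near-cis reads, 64583 and 68827. The interval itself held 1879 to 14722 reads at the promoter viewpoint, 14644 to 84842 at S2 and 24079 to 111747 at S4. Reads lay differently along the whole chromosome in mutant and WT libraries. Near-cis reads made up 82.6% to 85.7% of reads outside the 5-kb mask in the promoter libraries of the mutants, against 66.7% in both of WT. They made up 81.6% to 88.2% in mutants and 70.0% in WT at S2, and 88.0% to 89.9% in mutants, against 73.3% and 73.4% in WT, at S4. In windows of 185 kb tiling chromosome 9, the median log2 fold of mutant over WT, scaled to near-cis reads, was between -8.46 and -2.25 in the 12 comparisons. The part of this difference in the results below was not tested.

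From the NOTCH1 promoter, the interval took less of the near-cis reads in every mutant than in WT (a direction that other scalings turn, as given below), and least in the S5 and S4-S5 mutants. Its near-cis share was 2.91% and 3.02% in the 2 libraries of the S2 mutant, 3.27% and 3.36% in S4 mutant cells, 1.96% and 1.95% in S5 mutant cells and 2.25% and 2.25% in S4-S5 mutant cells, against 4.17% and 4.20% in WT. No 2 genotypes overlapped. By edgeR's quasi-likelihood test over 357 windows, the log2 fold of the S5 mutant over WT was -1.10 ± 0.05 (SE, adjusted p = 6.06e-90) and that of the S4-S5 mutant -0.90 ± 0.04 (adjusted p = 1.17e-82). The S2 mutant stood at -0.50 ± 0.06 (adjusted p = 1.38e-16) and the S4 mutant at -0.34 ± 0.04 (adjusted p = 1.57e-13). The interval was 1 window among many that passed, since 94.1% of windows were called in the S2, 93.3% in the S4, 94.4% in the S5 and 92.2% in the S4-S5 comparison.

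From the S2 viewpoint the order was different, with the S4 mutant above WT. The near-cis share was 2.72% and 2.60% in the S2 mutant, 3.77% and 3.71% in S4 mutant cells, 2.23% and 2.29% in S5 mutant cells and 2.37% and 2.36% in S4-S5 mutant cells, against 2.93% and 2.99% in WT. The S4 mutant was higher than every other library, and the S5 and S4-S5 mutants were lowest. The log2 fold over WT was 0.33 ± 0.03 in the S4 mutant (edgeR, adjusted p = 2.66e-21), -0.39 ± 0.03 with the S5 change (adjusted p = 5.17e-28), -0.33 ± 0.03 with both changes (adjusted p = 2.2e-20) and -0.16 ± 0.03 in the S2 mutant (adjusted p = 9.23e-06). Here 94.0% of 333 windows were called in the S2, 93.7% in the S4, 95.8% in the S5 and 94.9% in the S4-S5 comparison.

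From the S4 viewpoint, the farthest of the 3, the interval took its largest share in the S2 and S4 mutants. The near-cis share was 5.76% and 5.68% in the S2 mutant, 5.11% and 5.10% in S4 mutant cells, 3.06% and 3.09% in S5 mutant cells and 2.79% and 2.80% in S4-S5 mutant cells, against 4.70% and 4.72% in WT. The S2 and S4 mutants were thus above WT, and the S5 and S4-S5 mutants below it. The log2 fold over WT was 0.28 ± 0.02 in the S2 mutant (edgeR, adjusted p = 9.7e-42) and 0.11 ± 0.02 in the S4 mutant (adjusted p = 8.71e-09). It was -0.62 ± 0.02 with the S5 change alone (adjusted p = 1.96e-168) and -0.75 ± 0.02 with both the S4 and S5 changes (adjusted p = 3.15e-229). Of 357 windows, 90.5% were called in the S2, 95.2% in the S4, 94.4% in the S5 and 92.4% in the S4-S5 comparison. An exact permutation over all 945 partings of 10 libraries into 5 pairs gave a genotype difference in the near-cis share at each viewpoint (p = 0.00106, the smallest it can give, adjusted 0.00202 over 21 values).

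**Figure D1:**
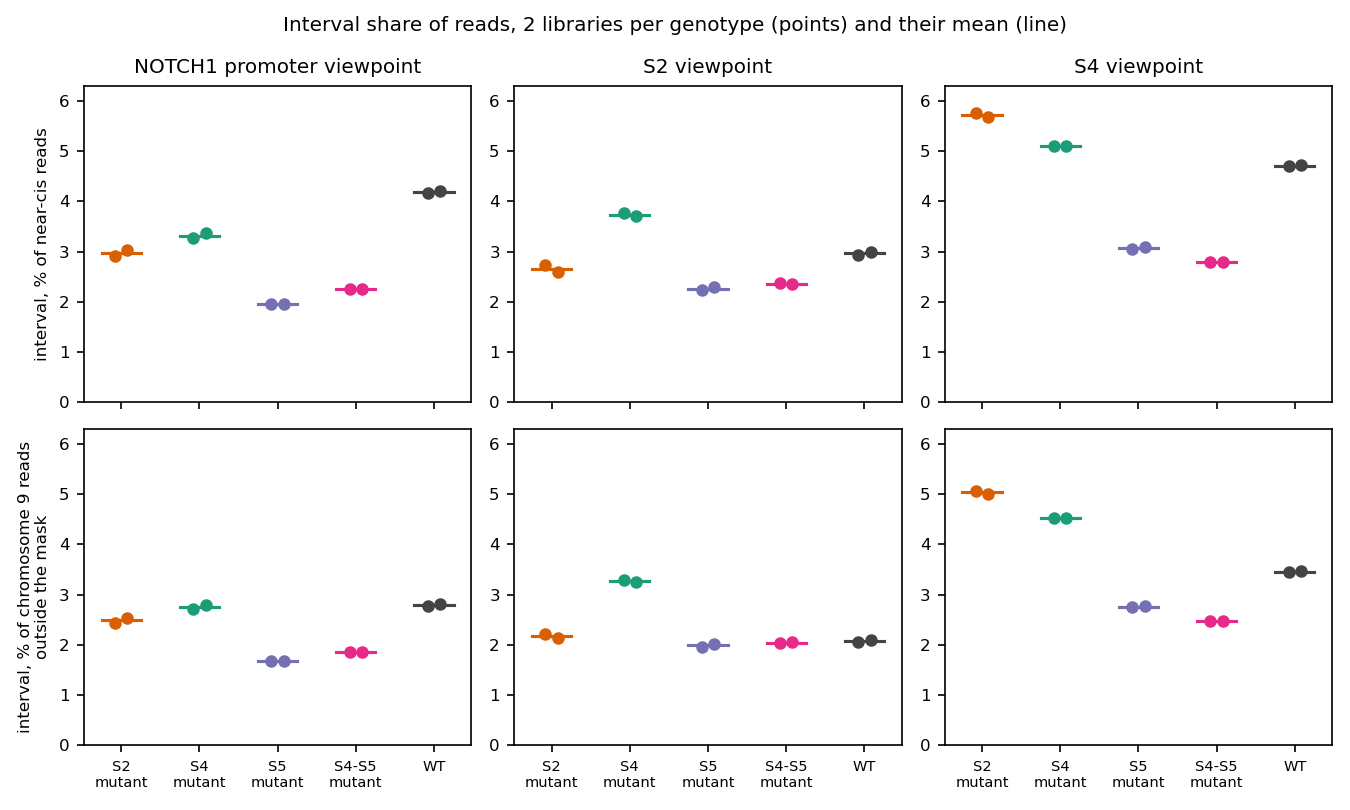
Share of reads in the interval, in percent of near-cis reads (top) and of all chromosome 9 reads outside the 5-kb mask (bottom), for each library (points) and genotype mean (lines). The S5 and S4-S5 mutants are lowest at each viewpoint on both scales, and at the S2 viewpoint on the lower scale they lie close under WT. Where a mutant lies below WT on these scales, the sign turns with TMM or DESeq2 size factors.

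On the scale of all chromosome 9 reads outside the mask, the S5 and S4-S5 mutants again had the lowest shares at every viewpoint, but WT moved closer to them. At the promoter the share was 2.44% and 2.54% in the S2 mutant, 2.71% and 2.79% in S4 mutant cells, 1.67% and 1.67% in S5 mutant cells and 1.86% and 1.86% in S4-S5 mutant cells, against 2.78% and 2.80% in WT. At S4 it was 5.07% and 5.00%, 4.53% and 4.52%, 2.74% and 2.77%, and 2.47% and 2.46% in the same mutants, against 3.45% and 3.46% in WT. At S2 the values were 2.22% and 2.13% in the S2 mutant, 3.29% and 3.25% in S4 mutant cells, 1.96% and 2.02% in S5 mutant cells and 2.04% and 2.05% in S4-S5 mutant cells, against 2.05% and 2.09% in WT. At this viewpoint the S4 mutant stood farthest from WT, with a log2 fold of 0.66 ± 0.03 (edgeR, adjusted p = 5.92e-79). The S2 mutant there stood at 0.07 ± 0.03 (adjusted p = 0.038), with the opposite sign to its near-cis fold, and the S5 and S4-S5 mutants no longer passed (adjusted p = 0.0775 and 0.519). The S4 mutant at the promoter did not pass either (log2 fold -0.02 ± 0.04, adjusted p = 0.631).

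The sign against WT depended on what the libraries were scaled to. With TMM factors or DESeq2 size factors, both estimated over the chromosome 9 windows, all 12 mutant over WT folds were positive. For the S5 mutant they were 1.21, 1.97 and 1.47 with TMM factors and 0.90, 3.03 and 2.76 with DESeq2 at the promoter, S2 and S4 viewpoints. For the S4-S5 mutant they were 0.90, 1.61 and 0.86 with TMM factors and 0.55, 1.98 and 1.35 with DESeq2. Every fold against WT in the bins below is on near-cis scaling. The median over all windows stayed below 0 in these comparisons, at -6.39 to -0.51 with TMM factors and -6.07 to -0.86 with DESeq2.

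**Figure D2:**
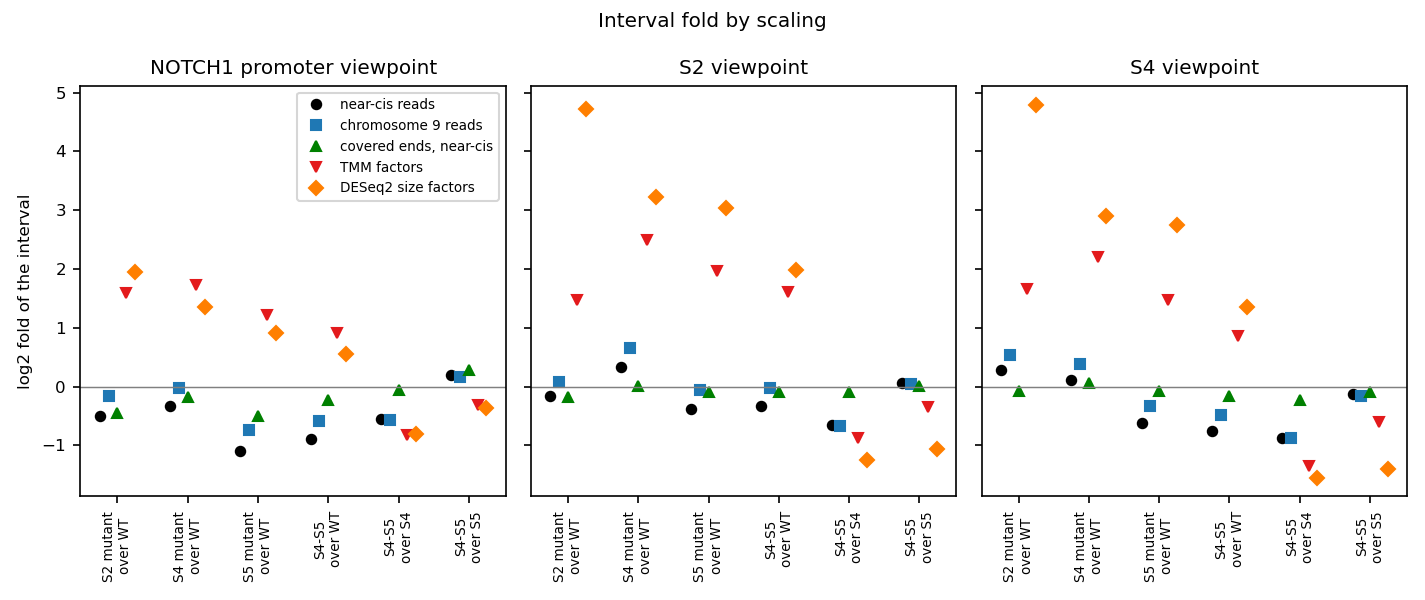
Log2 fold of the interval for each comparison (x axis) and scaling (symbols), by viewpoint. Folds of the S5 and S4-S5 mutants over WT are below 0 on near-cis reads, on chromosome 9 reads and on covered ends, and above 0 with TMM or DESeq2 size factors, while those of the S4-S5 over the S4 mutant are below 0 with every scaling drawn.

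The S4-S5 mutant was also set against the S4 mutant, from which it differs, by its label, in the S5 change. The number of clones behind each mutant is not stated, and a difference between clones was not tested. The S4-S5 mutant gave the interval less of its reads than the S4 mutant at all 3 viewpoints. The near-cis log2 fold of the S4-S5 over the S4 mutant was -0.56 ± 0.04 at the promoter (edgeR, adjusted p = 2.24e-33), -0.66 ± 0.03 at S2 (adjusted p = 8.36e-73) and -0.87 ± 0.02 at S4 (adjusted p = 2.77e-282). In this comparison 67.8%, 48.9% and 49.6% of windows were called at the promoter, S2 and S4, with median folds of 0.04, -0.02 and 0.00. The fold stayed negative on chromosome 9 scaling (-0.56, -0.68 and -0.88), with TMM factors (-0.82, -0.87 and -1.35) and with DESeq2 (-0.81, -1.25 and -1.55). Counted in covered ends in place of reads it was -0.06, -0.09 and -0.22, and none of these passed (adjusted p = 0.761, 0.989 and 0.771).

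On near-cis scaling, the S4-S5 mutant differed less from the S5 mutant than from the S4 mutant, and the sign varied with the viewpoint. The log2 fold of the S4-S5 over the S5 mutant was 0.20 ± 0.05 at the promoter (edgeR, adjusted p = 0.000171), 0.06 ± 0.03 at S2 (adjusted p = 0.13) and -0.14 ± 0.02 at S4 (adjusted p = 2.73e-11). In these, 68.1%, 48.9% and 51.0% of windows were called. With TMM factors all 3 were negative, at -0.31, -0.35 and -0.61. DESeq2 also gave negative folds, at -0.36, -1.05 and -1.40, beside -0.81, -1.25 and -1.55 for the S4-S5 over the S4 mutant.

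The place of the interval relative to its surroundings also differed among genotypes. The mirror window has the same bounds in distance on the telomeric side of a viewpoint, and reads per listed end were compared. It was not cut to match the stretch of the interval without listed ends. It begins 228, 171 and 309 kb from the promoter, S2 and S4 viewpoints. The interval's nearest listed end lies 277, 220 and 357 kb from them, so the distances of the ends compared are not matched. At the promoter the log2 ratio of interval over mirror window was 0.92 and 1.05 in the S2 mutant, 0.37 and 0.39 in S4 mutant cells, -0.52 and -0.55 in S5 mutant cells and -0.12 and -0.07 in S4-S5 mutant cells, against 0.02 and 0.06 in WT. In WT the densities of these unmatched windows were thus about level, with a higher ratio in the S2 mutant and a lower one in the S5 mutant. A higher ratio is not by itself a gain of reads in the interval. The interval's mean near-cis share at the promoter was 2.97% in the S2 mutant and 3.32% in the S4 mutant, below 4.18% in WT. At S4 the ratio was 2.25 and 2.27 in the S2 mutant and 2.26 and 2.26 in the S4 mutant, against 0.95 and 0.91 in WT. At S2 it was -1.01 and -1.08 in the S2 mutant and -1.28 and -1.29 in the S4 mutant, against -2.34 and -2.31 in WT. The ratio was therefore higher in the S2 and S4 mutants than in WT at each viewpoint, and no scaling of a library changes it. The S5 mutant lay below WT at all 3 viewpoints (-2.51 and -2.44 at S2, 0.73 and 0.78 at S4), and the S4-S5 mutant lay below it at the promoter and S2 (-2.53 and -2.51) and above it at S4 (1.11 and 1.10). The exact permutation test gave adjusted p = 0.00202, 0.00296 and 0.00392 for the difference among genotypes at the promoter, S2 and S4.

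Read density, in reads per listed end, was lower in the interval than in the 100 kb next to it on the viewpoints' side in all 30 libraries, and higher than in the 100 kb beyond it. The log2 density ratio to the nearer flank ran from -1.83 to -1.23 at the promoter, -2.68 to -1.67 at S2 and -2.06 to -1.72 at S4. That to the farther flank ran from 0.13 to 1.27, 0.33 to 1.28 and 0.38 to 1.56. The S5 mutant had the lowest nearer-flank ratio at the promoter, -1.83 and -1.81, against -1.32 and -1.32 in WT, and its farther-flank ratio was the highest there, 1.23 and 1.27, against 0.13 and 0.14 in WT. Within the interval, the side from 139122501 on, which is nearer the viewpoints, holds 34.4% of the listed ends at each viewpoint. It held 53.2% and 51.0% of the interval's reads in the S2 mutant, 40.4% and 40.6% in S4 mutant cells, 44.1% and 45.2% in S5 mutant cells and 33.9% and 33.1% in S4-S5 mutant cells at the promoter, against 38.4% and 38.1% in WT. The S2 mutant was highest and the S4-S5 mutant lowest there, whereas at S2 and S4 the S5 mutant reached 59.5% and 57.7%, and 54.5% and 55.5%, against 40.8% and 41.2%, and 39.2% and 39.2%, in WT. All of these differed among genotypes in the exact permutation test (adjusted p = 0.00202 to 0.00585).

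Reads were spread over 14 bins of 10 kb, the rest of the interval holding no listed end. In WT, the bin chr9:139110001-139120000 was among the 3 highest from both S2 and S4, at 0.33% and 0.33%, and 0.57% and 0.59%, of near-cis reads in the 2 libraries. It was near empty in the S2 mutant, with 0.0022% and 0.0020% at S2 and 0.013% and 0.014% at S4. From the S2 viewpoint it also held only 0.031% and 0.029% in S5 mutant cells and 0.041% and 0.039% in S4-S5 mutant cells, while the S4 mutant held 0.28% and 0.28%. The log2 fold over WT there was -7.28 ± 0.27 in the S2 mutant, from 30 reads in both libraries, and -3.06 ± 0.08 in the S4-S5 mutant (edgeR, adjusted p = 8.36e-13 and 1.15e-10). On covered ends, in fits that hold few counts per bin, these folds were -0.49 and -0.25 (edgeR, adjusted p = 0.911 and 0.972). The bin was picked for its high WT share, and as the most lowered bin of these mutants at S2. That choice favours lower mutant values, so the p-values are not independent of it. The promoter's highest WT bin, likewise picked for its WT share, was chr9:139030001-139040000, the farthest of all. It took 0.012% and 0.017% in the S2 mutant, 0.42% and 0.41% in S4 mutant cells, 0.039% and 0.040% in S5 mutant cells and 0.22% and 0.23% in S4-S5 mutant cells, against 0.45% and 0.47% in WT.

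Most bins of the interval were called, in a locus where most bins were. At the promoter, 8 of the 14 fell and 4 rose by edgeR in the S2 mutant, where 66.7% of 96 near-cis bins fell and 28.1% rose. The S4 mutant had 10 lower and 4 higher (65.6% and 25.0% of near-cis bins), the S5 mutant 12 and 2 (67.7% and 26.0%) and the S4-S5 mutant 12 and 1 (71.9% and 15.6%). At S2, 8 fell and 5 rose in the S2 mutant (64.2% and 28.4% of 95 bins), 6 and 7 in S4 mutant cells (58.9% and 27.4%), 10 and 2 in S5 mutant cells (61.1% and 31.6%) and 7 and 6 in S4-S5 mutant cells (55.8% and 28.4%). At S4, 8 fell and 6 rose in the S2 mutant (62.9% and 32.0% of 97 bins), 6 and 7 in S4 mutant cells (58.8% and 33.0%), 11 and 3 in S5 mutant cells (62.9% and 27.8%) and 12 and 1 in S4-S5 mutant cells (66.0% and 22.7%). In the S4 mutant the interval thus had about as many bins that rose as fell at S2 and S4. In the S5 mutant falls outnumbered rises at each viewpoint, as they also did over all near-cis bins.

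The median log2 fold over the 14 bins at the promoter, S2 and S4 was -1.67, -0.92 and -0.19 in the S2 mutant over WT, beside -0.93, -1.03 and -0.84 over all near-cis bins. In the S4 mutant it was -0.38, 0.33 and 0.12, beside -0.43, -0.35 and -0.36. In the S5 mutant it was -1.42, -0.58 and -0.49, beside -0.58, -0.38 and -0.46. The S4-S5 mutant had -1.03, -0.03 and -0.97, beside -0.57, -0.25 and -0.43. The S4 mutant at S2 and S4 was the one whose interval median lay above 0, while its near-cis median lay below. For the S4-S5 over the S4 mutant, 11, 9 and 12 of the 14 fell and 3, 4 and 2 rose, where 46.9%, 43.2% and 41.2% of near-cis bins fell and 42.7%, 45.3% and 46.4% rose. The median over the 14 was -0.66, -0.60 and -0.94, beside -0.07, 0.06 and 0.04 over all near-cis bins. For the S4-S5 over the S5 mutant, 5, 5 and 7 fell and 9, 8 and 7 rose, where 38.5%, 43.2% and 45.4% fell and 46.9%, 46.3% and 43.3% rose.

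**Figure D3:**
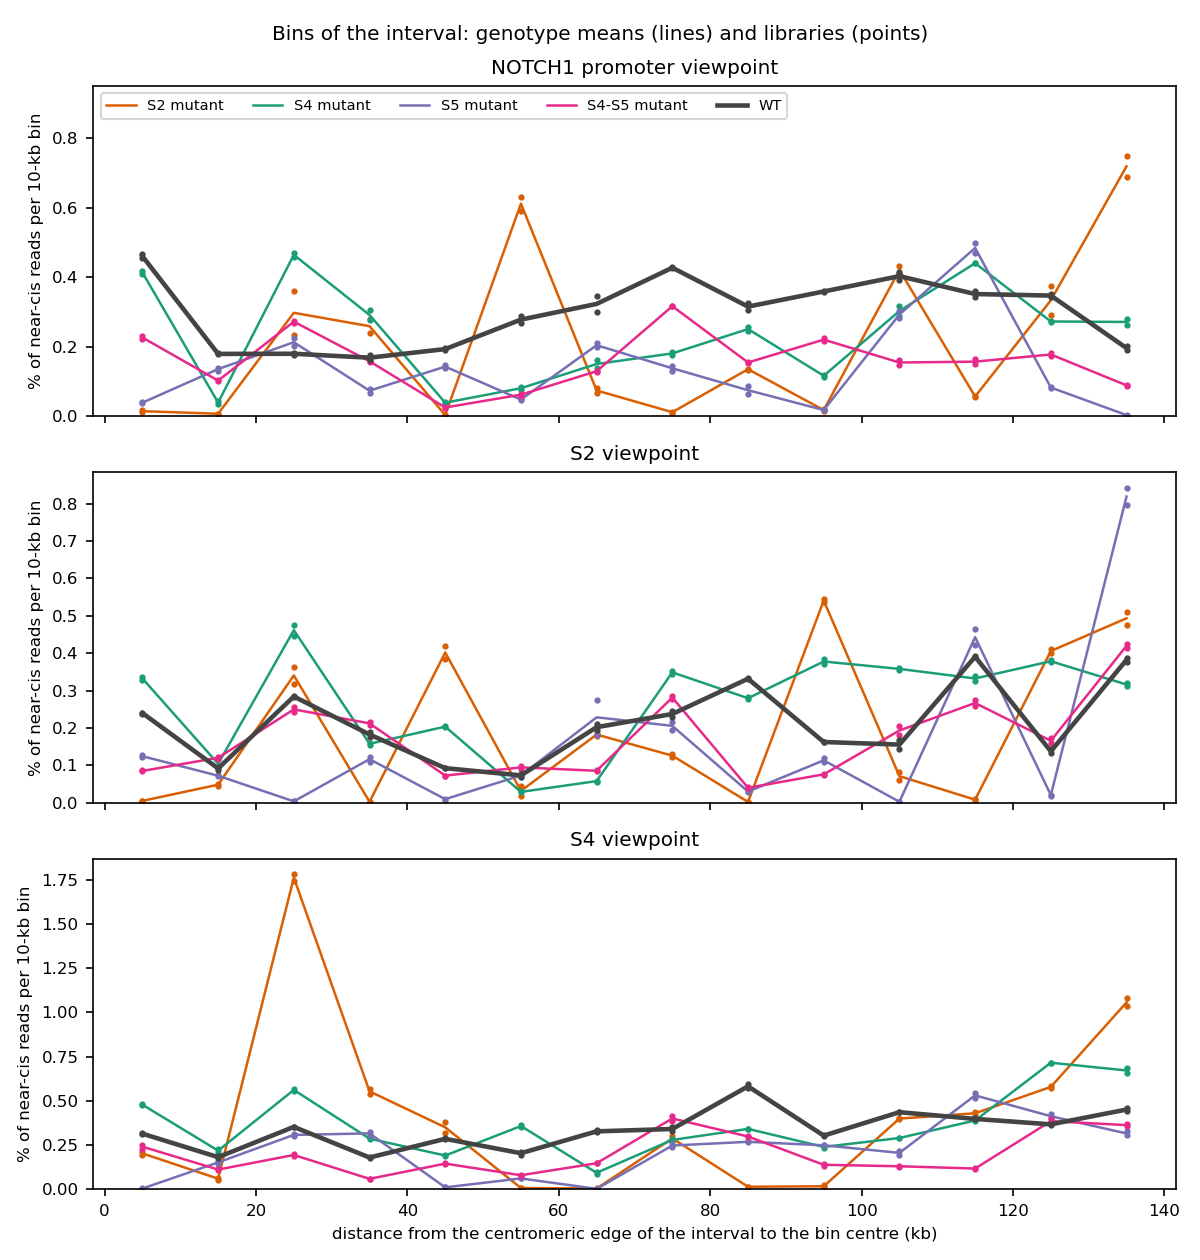
Percent of near-cis reads in each of the 14 bins of 10 kb (y axis) by distance from the centromeric edge of the interval (x axis, kb), with genotype means as lines and libraries as points. The S2 mutant has a few high bins, such as 1.78% and 1.74% at 139050001 from the S4 viewpoint, and others near 0, where WT is more even.

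Counted in reads, several bins moved strongly in the mutants, and which moved most differed by viewpoint. Those described here are the most raised or most lowered of the 14, so their p-values are not independent of that choice. Counted in covered ends, no bin of the interval passed in any comparison, in fits that hold few counts per bin. The share of all near-cis bins that passed on covered ends is not given here. The lack of calls is therefore not read as a trait of the interval or as a check on the read folds. In the S2 mutant the bin chr9:139160001-139170000 was highest at the promoter, with 0.75% and 0.69%, against 0.19% and 0.20% in WT (log2 fold 1.86 ± 0.07, edgeR adjusted p = 7.9e-63). On covered ends its fold was -0.60 (edgeR, adjusted p = 0.64), of the opposite sign. In the S5 mutant the same bin took 0.0023% and 0.0051% from the promoter (log2 fold -5.72 ± 0.41, adjusted p = 1.16e-74), yet 0.84% and 0.80% from S2, against 0.38% and 0.39% in WT (log2 fold 1.10 ± 0.06, adjusted p = 1.01e-08). In the S5 mutant the reads of this bin thus moved in opposite directions as seen from the promoter and from S2, where the folds on covered ends were -0.86 and 0.14 (edgeR, adjusted p = 0.65 and 0.91). The bin chr9:139050001-139060000 took 1.78% and 1.74% in the S2 mutant at S4, against 0.35% and 0.35% in WT (log2 fold 2.32 ± 0.04, adjusted p = 4.67e-19), and on covered ends its fold was -0.28 (edgeR, adjusted p = 0.927). From S2 the S5 mutant had 0.0034% and 0.0040% there, against 0.28% and 0.29% in WT (log2 fold -6.28 ± 0.14, adjusted p = 2.75e-12), with -0.25 on covered ends (edgeR, adjusted p = 0.91). The bin chr9:139090001-139100000 was the most reduced of the 14 at S4 in the S2, S4 and S5 mutants, with 0.0039% and 0.0026%, 0.097% and 0.087%, and 0.0011% and 0.0012%, against 0.32% and 0.33% in WT. Its log2 folds were -6.64 ± 0.29, -1.83 ± 0.07 and -8.12 ± 0.28 (edgeR, adjusted p = 6.26e-18, 2.36e-14 and 3.12e-19), and on covered ends -0.59, -0.27 and -0.66 (edgeR, adjusted p = 0.927, 0.997 and 0.887).

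Bins that lay on the same side of WT from all 3 viewpoints were mostly lower. Both S5 mutant libraries lay below both WT libraries at all 3 viewpoints in 7 of the 14 bins, where 30.5% of the 82 near-cis bins common to the viewpoints did. The count was 6 in the S4-S5 mutant (32.9%), 5 in the S2 mutant (36.6%) and 2 in the S4 mutant (26.8%). The bin at 139110001 was below WT at every viewpoint in all 4 mutants. Bins above WT at all 3 viewpoints numbered 2 in the S2 mutant (8.54% of the 82), 1 in S4 mutant cells (2.44%), 1 in S5 mutant cells (7.32%) and 0 in S4-S5 mutant cells (2.44%). The bin at 139050001 was the one above WT in both the S2 and the S4 mutant. With 2 libraries on each side, groups can lie apart with little difference between them, so these shares are set beside the locus and not tested. WT is the same pair of libraries in the 4 comparisons at a viewpoint, so the counts are not independent.

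**Figure D4:**
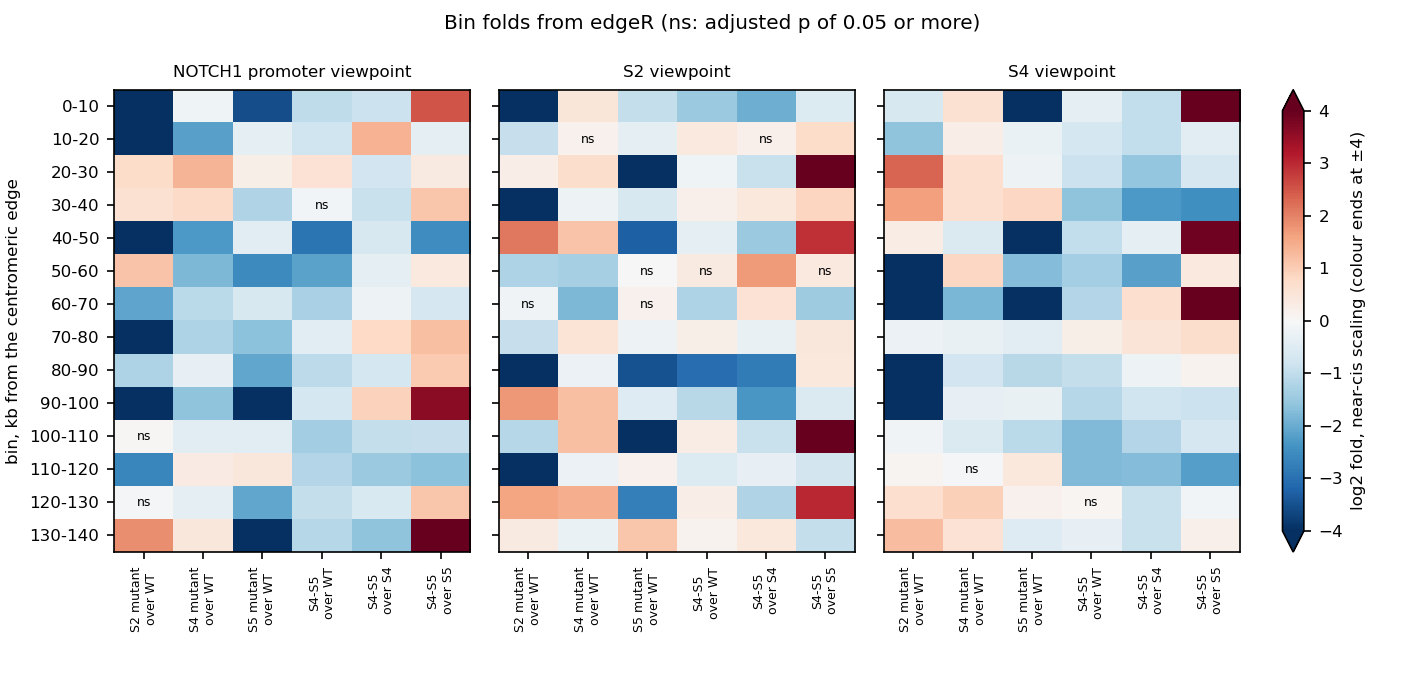
Log2 fold by edgeR in each 10-kb bin of the interval (rows, from the centromeric edge at the top) and comparison (columns), on near-cis scaling, with colours cut at 4 and ns where the adjusted p was 0.05 or more. The columns of the S5 and S4-S5 mutants over WT are mostly blue at the promoter and S4 viewpoints, and neighbouring bins often differ in sign.

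At the level of single ends, the mutant libraries rested on fewer positions than WT. The effective number of ends, the inverse of the summed squared read shares, was 10.4 and 10.5 in the S2 mutant, 58.3 and 58.3 in S4 mutant cells, 24.4 and 25.1 in S5 mutant cells and 80.4 and 79.3 in S4-S5 mutant cells at the promoter, against 85.8 and 85.8 in WT. At S2 it was 8.19 and 7.89, 52.7 and 52.3, 16.7 and 16.9, and 39.9 and 42.1 in the same mutants, against 69.1 and 70.3 in WT. At S4 it was 13.2 and 13.3, 65.3 and 65.1, 30.1 and 30.9, and 52.3 and 51.0, against 72.9 and 66.7 in WT. The S2 and S5 mutants were the most concentrated at every viewpoint. Listed ends with at least 1 read were 17.5% to 31.9% in mutants and 38.1% and 39.3% in WT at the promoter, and 23.0% to 33.1% in mutants and 38.7% and 40.7% in WT at S2. At S4 they were 29.3% to 41.3% in mutants and 47.3% and 46.0% in WT. Over all near-cis ends the mutants were also below WT, so lower coverage was not particular to the interval. There, 33.7% to 52.6% of ends were covered in mutants and 54.1% and 55.2% in WT at the promoter. The values were 39.0% to 48.0%, and 57.2% and 57.7%, at S2, and 41.0% to 48.3%, and 57.5% and 57.6%, at S4. At equal read number within a viewpoint, covered ends of the interval were 78.7 to 136 in mutants and 153 and 153 in WT at the promoter, 105 to 134 and 207 and 210 at S2, and 136 to 177 and 239 and 224 at S4.

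**Figure D5:**
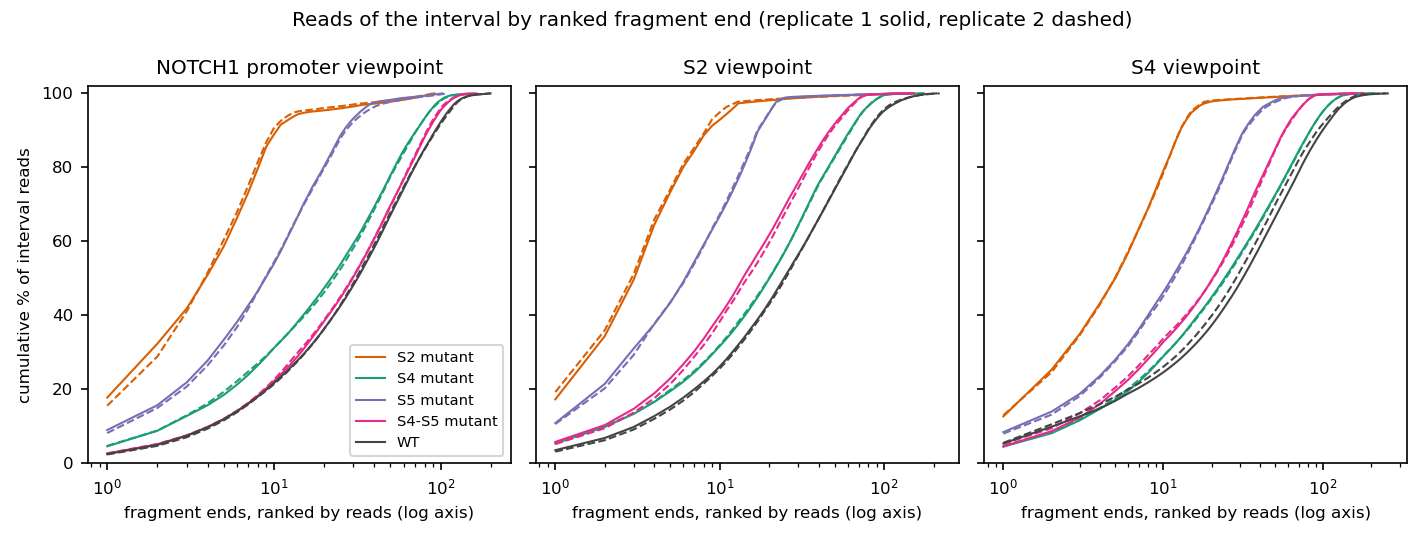
Cumulative percent of the interval's reads (y axis) over its fragment ends ranked by reads (x axis, log scale), 1 line per library. The S2 and S5 mutants climb fastest and WT slowest or close to the S4-S5 mutant, which at the promoter has 80.4 and 79.3 effective ends, against 85.8 and 85.8 in WT.

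The most covered end, taken over both libraries of a group, differed between genotypes, with 13 different ends among 15 groups. It did not always lead in each library. The 2 libraries had different leading ends in WT at the promoter and in the S2 mutant, the S5 mutant and WT at S2. In the S5 mutant at S2 these were chr9:139165742 (10.9%) and chr9:139093697 (10.6%), neither of them the leading end of the group. In the S2 mutant at the promoter it was chr9:139163516, with 17.8% and 15.6% of the interval's reads. It had 658 reads in the S2 mutant and 1 read in WT, over both libraries, and lies in the bin that rose there. At S2 the leading end of the S2 mutant was chr9:139160188, with 17.1% and 19.3% (6815 reads, against 38 in WT), and its 5 most covered ends held 73.7%. At S4 it was chr9:139056212, with 12.7% and 13.0% (6500 reads, against 542 in WT), in the bin with the largest rise. The leading ends of the S5 mutant were chr9:139131230 at the promoter (9.01% and 8.19%), chr9:139164310 at S2 (10.6% and 9.64%) and chr9:139155412 at S4 (8.46% and 8.04%). The last was also the leading end of the S4 mutant at S4 (4.53% and 4.74%), and held 0.610% of the reads in WT. In WT the leading ends were chr9:139097989 (2.54% and 2.33%), chr9:139115335 (3.31% and 3.17%) and chr9:139156261 (5.39% and 5.56%) at the promoter, S2 and S4. That of the S2 viewpoint, with 1104 reads in WT, had 1 to 6 reads in each mutant.

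The read profile over ends was more alike between libraries of 1 genotype than between genotypes. Over the interval's ends, the correlation of log2 reads plus 1 between the 2 libraries of a genotype was 0.899 to 0.994, and that between libraries of different genotypes was 0.075 to 0.525. This is a description over 514 or 535 ends that share restriction sites and mapping, without a test. Which ends had any read was least repeatable in the S2 mutant at the promoter, the group with the fewest interval reads (1879 and 2080). At the same viewpoint the S4-S5 mutant covered 164 and 159 ends with 146 in common, and WT 196 and 202 with 173 in common. The libraries of the S2 mutant at the promoter covered 92 and 90 ends and had 43 in common. Of these, 23 were among the 173 covered in both of WT, 53.5% of the mutant's and 13.3% of the WT ends. At S4, 111 of 129 such ends of the S2 mutant (86.0%) were among the 228 of WT (48.7%). Of the ends covered in both libraries of a mutant, 69.3% to 88.5% were among those of WT at S2 and S4, and 41.7% to 54.4% at the promoter. Of all listed ends, both WT libraries covered 173 of 514 at the promoter, 192 of 535 at S2 and 228 of 535 at S4. Ends with reads in all 10 libraries of a viewpoint were 3 of 514 for the promoter, 63 of 535 for S2 and 71 of 535 for S4.

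The interval was also measured by its share of the covered near-cis ends. At the promoter this share was 9.08% and 8.66% in the S2 mutant, 10.6% and 10.9% in S4 mutant cells, 8.22% and 8.82% in S5 mutant cells and 10.5% and 10.1% in S4-S5 mutant cells, against 12.0% and 12.2% in WT. All mutants were below WT there. The log2 fold of covered ends over WT was -0.51 ± 0.12 in the S5 mutant (edgeR, adjusted p = 0.000209) and, for the S2 mutant, -0.45 ± 0.13 (adjusted p = 0.00142). Those of the S4 mutant, -0.17 (adjusted p = 0.203), and of the S4-S5 mutant, -0.23 (adjusted p = 0.169), did not pass. At S2 and S4 no mutant passed, with log2 folds from -0.17 to 0.05 (adjusted p = 0.157 to 0.996). The genotypes still differed in this share in the exact permutation test (adjusted p = 0.00392, 0.0116 and 0.00778 at the promoter, S2 and S4). At S2 that call was lost when near-cis was taken as 1 Mb (exact p = 0.115) and without replicate 1 of the S2 mutant (0.0508). At S4 it was lost without replicate 2 of the S4 mutant or without replicate 1 of the S4-S5 mutant (exact p = 0.0519 each).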

How the data were processed

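4C-seq of 3 viewpoints was analysed in 30 K562 libraries from the deposited tables, 1 per library. Per the file headers, the authors deposited whole read counts per fragment end of chromosome 9. deepTools and the build hg19 are named in the submitters' processing notes, without versions, and no source names the aligner or read filters. The scaled and smoothed columns of the tables were set aside, because the tests need counts. 4C reads carry no molecular identifiers, so intervals from counts would cover counting error only.

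Per the labels' protocols, cells were fixed with 2% formaldehyde for 10 min, cut with DpnII and ligated, and templates had 16 cycles of a viewpoint PCR. Reads within 5 kb of a viewpoint were left out, and reads within 500 kb set the library size. Windows of 185 kb tiling chromosome 9 on the interval's grid, and near-cis bins of 10 kb, were fitted with edgeR 4.0.16 (glmQLFit and glmQLFTest, all 10 libraries of a viewpoint in 1 fit). Those averaging fewer than 10 reads over the libraries were dropped. Tests were two-sided, with Benjamini-Hochberg adjustment over all windows or bins of a contrast and a threshold of 0.05. SEs are Wald errors with a variance no lower than Poisson. For values per library, the F statistic was permuted exactly (upper tail), since 2 libraries against 2 allow no p below 0.333. The values at 3 viewpoints made a family of 21.

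Bins named are, per viewpoint, the 3 with the highest WT share and, per mutant, the most raised and most lowered bin past the threshold whose mutant libraries both lay beyond both WT libraries. A part of them is described, and all are drawn. Ends named are the most covered of each group. The interval, the lists and the tests were chosen with earlier results of these data known. The interval was planned as 18 bins, of which 14 hold a listed end. Alternatives were chromosome 9 scaling, TMM, DESeq2 1.42.0, a 20-kb mask, a 1-Mb window, covered or non-blind ends, other bins and filters, a replicate block, other mutants in place of WT, and each library left out. With other mutants in place of WT, the S2 mutant was set against the S4, S5 and S4-S5 mutants. The S4 mutant was set against the S2 and S5 mutants, the S5 mutant against the S2 and S4 mutants, and the S4-S5 mutant against the S2 mutant alone. Replicate numbers did not pair samples (correlations of deviations -0.17 to 0.37).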

Additional observations from a re-analysis of the deposited data

Results flagged for a closer look

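On near-cis scaling, the interval's share in the S2 and S4 mutants lay on opposite sides of WT as seen from different viewpoints, with both mutant libraries on the same side of both WT libraries each time. The log2 ratio of mean near-cis shares, S2 mutant over WT, was -0.497 at the promoter and -0.156 at S2, but 0.278 at S4. That of the S4 mutant over WT was -0.335 at the promoter, but 0.335 at S2 and 0.115 at S4. As a share of chromosome 9 reads outside the mask, the S2 mutant stood at -0.164 over WT at the promoter, but at 0.0699 at S2 and 0.543 at S4. On that scale the S4 mutant at the promoter did not pass (log2 fold -0.02, edgeR adjusted p = 0.631), and stood at 0.66 at S2 and 0.39 at S4. With TMM or DESeq2 size factors no opposite directions remained, since the folds over WT at the promoter, S2 and S4 were 1.59, 1.47 and 1.65 in the S2 mutant and 1.73, 2.49 and 2.21 in the S4 mutant with TMM factors, and 1.95, 4.72 and 4.79, and 1.35, 3.23 and 2.90, with DESeq2. The difference between viewpoints itself was not tested, and each viewpoint has its own libraries. The S5 and S4-S5 mutants were below WT at all 3 viewpoints on the near-cis and chromosome 9 scales, and above it with TMM or DESeq2.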

How the results depend on the processing

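Of 210 recomputed interval folds with no library left out, 157 kept direction and call, 22 lost the call, 3 gained it and 28 changed sign, and all 180 with a library left out kept both. The cause of a change was not tested except where the setting itself shows it. With TMM factors, log2 folds turned to 1.59 (promoter) and 1.47 (S2) in the S2 mutant, 1.73 (promoter) in the S4 mutant, 1.21, 1.97 and 1.47 (promoter, S2, S4) in the S5 mutant and 0.90, 1.61 and 0.86 in the S4-S5 mutant over WT. For the S4-S5 over the S5 mutant they turned to -0.31 (promoter) and -0.35 (S2). With DESeq2 the same folds were 1.95 and 4.72, 1.35, 0.90, 3.03 and 2.76, 0.55, 1.98 and 1.35, and -0.36 and -1.05. With chromosome 9 scaling the S2 mutant at S2 turned to 0.070, and the S5 (-0.059) and S4-S5 mutant (-0.022) at S2 and the S4 mutant at the promoter (-0.021) lost the call. In the S2 mutant at S2 the fold was 0.057 with a 20-kb mask, 0.29 on non-blind ends, -0.037 without 10 kb at each edge and -0.029 against the other mutants, of which only the last 2 kept its direction. Against other mutants, the S2 and S4 mutants at the promoter turned to 0.28 and 0.46.

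Counted in covered ends, no bin of the interval was called in any comparison (0 of 14), and the fits then hold few counts per bin. The share of all near-cis bins called in these fits is not given here, so the 0 of 14 has no background beside it. At the interval, only the S2 and S5 mutants at the promoter stayed called. Those that did not pass were the S2 mutant at S2 (-0.17) and, turned, at S4 (-0.070), the S4 mutant (-0.17, 0.00342 and 0.053 at the promoter, S2 and S4), the S5 mutant at S2 and S4 (-0.099 and -0.074), the S4-S5 mutant over WT (-0.23, -0.090 and -0.17), over the S4 mutant (-0.062, -0.094 and -0.22) and over the S5 mutant (0.27 at the promoter and -0.095 at S4).

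The fold of the S4-S5 over the S5 mutant lost its call at the promoter without the edges (0.079) and on non-blind ends (0.065), and at S4 without the most covered end (-0.035). At S2 it gained one without the edges (0.092), with the 20-kb mask (0.17) and with the replicate block (0.063, adjusted p = 0.0241), where the main value of 0.06 had adjusted p = 0.13. The replicate numbers do not pair the samples, and the block changed no other interval call.

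Of the 24 named bin folds, 5 turned on covered ends (-0.35 at 139040001 and S2 in the S4-S5 mutant, -0.28 at 139050001 and S4 in the S2 mutant, -0.24 at 139060001 and S4 and -0.34 at 139140001 and the promoter in the S5 mutant, and -0.60 at 139160001 and the promoter in the S2 mutant). Against other mutants, 6 turned. For the S4-S5 mutant, set against the S2 mutant alone, these were -0.14 at 139050001 and 2.74 at 139070001 (promoter) and 4.22 at 139110001 (S2). The S2 mutant held 5 reads at 139070001 from the promoter and 30 at 139110001 from S2, over both libraries. In the S5 mutant it was -0.33 at 139060001 (S4), and in the S4 mutant 0.75 at 139070001 (promoter) and 5.55 at 139090001 (S4). The share of bins called ran from 50.0% to 100.0% in the S4-S5 over WT comparison at S2 with each library left out, with 57.1% without either WT library and 50.0% without replicate 2 of the S4-S5 mutant. The genotype difference in covered-end share had an exact p of 0.115 at S2 with the 1-Mb window, and with each library left out it ran from 0.00952 to 0.0508 at S2 and 0.00741 to 0.0519 at S4. Depth limits the promoter viewpoint most, where the interval had as few as 1879 reads.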

Other observations

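Blind fragments, which lack a site of the other restriction enzyme, make up 43.2% of the interval's ends in the promoter tables and 69.3% in those of S2 and S4. At the promoter they held 17.7% and 18.5% of the interval's reads in the S2 mutant, 22.1% and 21.3% in the S4 mutant, 19.1% and 19.0% in the S5 mutant and 27.5% and 26.7% in the S4-S5 mutant, against 17.3% and 17.5% in WT. At S2 they held 35.4% and 36.5%, 33.5% and 32.7%, 44.9% and 44.0%, and 42.9% and 43.5% in the same mutants, against 53.0% and 53.9% in WT, where the leading end over both libraries is itself blind. At S4 all libraries lay between 33.7% and 37.0%. Ends with no read in any of the 10 libraries of a viewpoint numbered 199 for the promoter, 270 for S2 and 228 for S4.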
